A study of Mus musculus with 4 samples.

Results

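The cells described here are liver CD8 T cells with Ly6c2 mRNA and without Gzmk or Pdcd1 mRNA, proposed under the working name Ly6c2 memory-like CD8 T cells and called Ly6c2+ CD8 cells below. They were chosen by measured values. Each cell barcode had at least 500 unique molecular identifiers (UMIs, 1 per captured mRNA molecule), at least 300 genes and at most 10% mitochondrial UMIs. It also had at least 1 UMI of Cd3e, Cd3d or Trac, at least 1 of Cd8a or Cd8b1, at least 1 of Ly6c2, and none of Cd4, Cd79a, Gzmk or Pdcd1. The rule took 931 of 26825 kept cells, and these were 931 of the 2317 cells inside the same CD8 gate. The other CD8-gated cells were 765 Ly6c2-negative cells without Gzmk or Pdcd1 and 621 cells with a UMI of Gzmk or Pdcd1. A further 439 cells with Ncr1 and without any Cd3, Cd8, Cd4 or Cd79a UMI of the gate served as natural killer (NK) cells. The libraries held 50941106 to 89257239 UMIs in all, and the Ly6c2+ CD8 cells 858750 to 3221790 UMIs per library.

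Male C57BL/6J mice, 7 weeks old at the start, ate the FPC diet, which is rich in fructose, palmitate, cholesterol and trans-fat and induces steatohepatitis. The low-cholesterol arm received 0.05% cholesterol throughout, and its liver was sampled at week 24 (P-LC24) and again at week 32 (I-LC32). The high-cholesterol arm received 1.25% cholesterol until week 24 (P-HC24) and then 0.05% for 8 weeks until week 32 (I-HC32). Each of the 4 conditions is 1 single-cell library made from 12 fine-needle aspirates pooled over 3 mice, and the same 3 mice of an arm gave both of its libraries, so that animals cannot be separated and arm, animals and library cannot be told apart. With 1 library per condition no test between conditions was possible, and intervals of shares and ratios below cover counting error only. Progression (Prog) is P-HC24 relative to P-LC24 and Intervention (Int) is I-HC32 relative to I-LC32.

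Naive CD8 T cells that have met antigen, or that have responded to cytokines of the interleukin-15 family without antigen, can become long-lived memory cells. Such cells carry Ly6C at the surface, raise the shared IL-2 and IL-15 receptor chain CD122 (Il2rb), respond to IL-12 and IL-18 with interferon-gamma, and may take on receptors better known from NK cells. Ly6c2 encodes a small GPI-anchored protein that monocytes and some NK cells carry too. Exhausted or tissue-resident CD8 T cells of the inflamed liver instead express inhibitory receptors such as PD-1 (Pdcd1) and, often, granzyme K. In the text, levels are CPM, the summed UMIs of a gene in a gate of a library scaled to the sum over all genes, and the 4 values of a gene or share come in the order P-LC24, then P-HC24, then I-LC32, then I-HC32.

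The gate rests on Ly6c2, and the regions before its annotated start site and before those of a few genes that mark these cells are shown. Which start site the measured transcripts used was not tested. RefSeq promoters were found for 4 of the 5 marker genes, and for each gene printed the first start site listed was taken. They are on GRCm38.p6, 5′ to 3′ on the strand of the gene, 250 bases upstream of the start site for coding genes and 300 bases, 50 of them past the start, for the long non-coding Ifngas1. Capitals mark GGTGTG or its reverse CACACC, letters of the T-box family (Eomes, T-bet), and TGTGGT or its reverse ACCACA, letters of the Runx family, searched on both strands, where the letters of one motif can overlap those of the other. The T-box letters stood in 19.0% and the Runx letters in 16.8% of 32851 such 300-base promoters of 27025 genes, so that a match is common and is given as a description only. Ly6c1 is shown beside Ly6c2 as its near-identical neighbour.
Ly6c2, chr15:75111972-75112221, minus strand: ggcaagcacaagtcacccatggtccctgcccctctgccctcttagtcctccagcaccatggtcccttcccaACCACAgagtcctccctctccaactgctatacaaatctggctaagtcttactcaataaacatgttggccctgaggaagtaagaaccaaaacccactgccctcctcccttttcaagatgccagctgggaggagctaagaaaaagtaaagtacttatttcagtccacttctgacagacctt
Ly6c1, chr15:75048838-75049087, minus strand: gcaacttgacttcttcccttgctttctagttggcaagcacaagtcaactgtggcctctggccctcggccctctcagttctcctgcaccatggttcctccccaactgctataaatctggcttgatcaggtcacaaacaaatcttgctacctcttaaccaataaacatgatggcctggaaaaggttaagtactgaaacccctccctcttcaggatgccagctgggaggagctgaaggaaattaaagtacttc
Klrc1, chr6:129678974-129679223, minus strand: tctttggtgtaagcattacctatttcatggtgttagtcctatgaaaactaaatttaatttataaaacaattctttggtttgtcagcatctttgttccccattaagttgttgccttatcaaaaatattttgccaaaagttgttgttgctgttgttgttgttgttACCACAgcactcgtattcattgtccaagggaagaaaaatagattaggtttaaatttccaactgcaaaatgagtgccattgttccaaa
Xcl1, chr1:164935523-164935772, minus strand: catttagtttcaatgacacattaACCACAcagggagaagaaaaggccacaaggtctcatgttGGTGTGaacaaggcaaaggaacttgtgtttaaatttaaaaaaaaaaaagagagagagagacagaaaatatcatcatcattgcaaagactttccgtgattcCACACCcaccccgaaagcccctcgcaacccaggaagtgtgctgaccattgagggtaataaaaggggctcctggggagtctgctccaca
Ifngas1, chr10:118556476-118556775, minus strand: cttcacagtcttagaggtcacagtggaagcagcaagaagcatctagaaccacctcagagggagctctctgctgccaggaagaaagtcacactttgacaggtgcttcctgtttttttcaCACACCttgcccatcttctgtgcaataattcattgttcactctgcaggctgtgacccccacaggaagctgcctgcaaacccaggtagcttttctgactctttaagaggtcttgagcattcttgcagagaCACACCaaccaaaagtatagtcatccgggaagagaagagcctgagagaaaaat
The Runx letters began 179 bases before the start of Ly6c2 and 87 bases before that of Klrc1, and Xcl1 held T-box letters from 188 and 88 bases and Runx letters from 227 bases before its start. Ifngas1 held T-box letters from 132 and from 3 bases before its start, and the printed Ly6c1 region held neither motif. Other start sites of these genes differ, as a second one of Ly6c1 held T-box letters from 112 bases before it, and of Il18r1, which is not printed, the second of its start sites held T-box letters from 12 bases before and Runx letters from 21 bases after it and the others neither.

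The transcripts of Ly6c2 and Ly6c1 agreed in 94.4% of their last 400 bases, the stretch that 3′ counting reads. Ly6c1 lies beside Ly6c2 on chromosome 15 (GRCm39, Ly6c1 at chr15:74915847-74920686 and Ly6c2 at chr15:74980003-74988467), and it was close to absent from the Ly6c2+ CD8 cells, at 0, 0, 0 and 1.16 CPM. Of the listed Ly6 genes besides Ly6c2, 3 were abundant enough to test, and none of the 3 passed between Ly6c2+ and Ly6c2-negative cells (edgeR, median log2 difference -0.25, none at an unadjusted p under 0.05 and none by DESeq2).

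Ly6c2+ CD8 cells made up 41.7% of the CD8-gated cells in P-LC24 (95% exact binomial interval 37.8 to 45.7, 258 of 619 cells), 43.3% in P-HC24 (39.2 to 47.5, 249 of 575) and 42.1% in I-LC32 (38.7 to 45.7, 335 of 795). In I-HC32 they were 27.1% (22.4 to 32.3, 89 of 328). The share of I-HC32 thus lay below those of the other libraries, whose intervals overlapped each other. The share of all kept cells was 5.02%, 3.6%, 4.52% and 1.21%. As these are shares, fewer Ly6c2+ CD8 cells and more of the others cannot be told apart. Cells with Gzmk or Pdcd1 were 25.4%, 13.0%, 30.6% and 44.5% of the CD8 gate, most in I-HC32. Among CD8-gated cells without Gzmk and Pdcd1, those with Ly6c2 made up 55.8% (51.2 to 60.4), 49.8% (45.3 to 54.3), 60.7% (56.5 to 64.8) and 48.9% (41.4 to 56.4), so that with this denominator the interval of I-HC32 overlapped those of P-LC24 and P-HC24. With no condition on Gzmk and Pdcd1, the share with Ly6c2 in I-HC32 (39.0%, 33.7 to 44.5) overlapped those of P-LC24 (43.3 to 51.4) and P-HC24 (43.2 to 51.5).

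**Figure D1:**
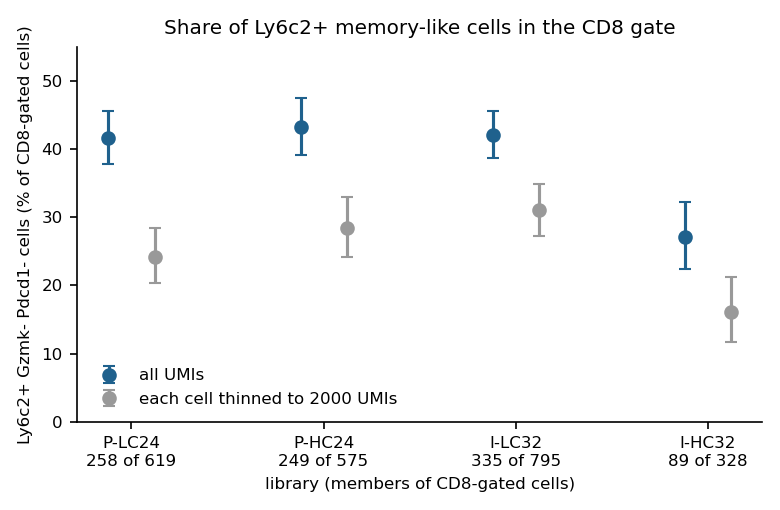
Share of Ly6c2+ CD8 cells among CD8-gated cells, in percent, for each of the 4 libraries, with all UMIs and with every cell thinned to 2000 UMIs; bars on the points are 95% exact binomial intervals of the cell counts. The I-HC32 point lies lowest with all UMIs (27.1%) and after thinning (16.1%), where its interval overlaps that of P-LC24.

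Whether a cell shows Ly6c2 depends on how deeply it was read. The median UMI count was 11393, 9810, 9308 and 9533 in Ly6c2+ cells but 8564.5, 7770, 7371 and 7522 in Ly6c2-negative cells. With every cell thinned to 2000 UMIs before gating, the shares of CD8-gated cells were 24.2% (20.4 to 28.4), 28.4% (24.2 to 33), 31.0% (27.3 to 34.9) and 16.1% (11.7 to 21.2). I-HC32 was again the lowest, but its interval overlapped that of P-LC24. Cells with Cd79a and without Cd3e, Cd3d, Trac, Cd8a or Cd8b1 served as B cells, and whether some of them express Ly6c2 was not tested. Of these B cells, 2.42%, 2.37%, 2.65% and 1.95% had a Ly6c2 UMI at median depths of 5892, 6813.5, 6764 and 8829 UMIs. After thinning, 30.2%, 31.0%, 38.4% and 22.7% of all CD8-gated cells, which were not chosen on Ly6c2, and 1.19%, 0.997%, 1.03% and 0.596% of B cells had one. Of the cells chosen for the gene, 63.2%, 64.5%, 67.8% and 59.1% still had one. NK-gated cells with Ly6c2 were 38.2%, 48.5%, 36.6% and 41.9%. The share of CD8-gated cells with Ly6c2 was thus above that of B cells in each library at equal depth.

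Ly6c2+ CD8 cells held a median of 6, 5, 5 and 3 Ly6c2 UMIs and at most 30, 35, 41 and 26, and 39, 53, 51 and 18 cells entered the gate with a single UMI. The summed level was 617, 677, 729 and 486 CPM, which is a description because the gate used it. Cells kept out for Gzmk or Pdcd1 also had Ly6c2 at times. It was seen in 35, 23, 104 and 39 of them, at 155, 316, 496 and 177 CPM over the gate. No barcode was shared between the Ly6c2+ cells of any pair of libraries, while 13 to 36 kept barcodes were shared per pair.

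The label was checked against Il2rb, Klrc1, Ifngas1 and Il18r1, the markers proposed with it besides Ly6c2. All 4 were higher in Ly6c2+ than in Ly6c2-negative CD8 cells in each of the 4 libraries, without overlap between the gates. Because these genes were chosen with results of these data known, their difference is no independent support of the label. How common a lack of overlap was among all genes tested is not given, so that it is a description only, here and below. The gates were compared with edgeR's quasi-likelihood test on the UMI sums of the 4 gates in the 4 libraries, with library as a term and Benjamini-Hochberg adjustment over all genes. The markers are described with the other genes below. Cells of both gates came from the same libraries and pooled mice. The test thus measures how differences between gates vary over these libraries, with the spread of a gene estimated over all 4 gates. It does not measure the spread between animals. Of 9283 genes tested, 257 were higher (2.77%) and 134 lower (1.44%) in Ly6c2+ cells at an adjusted p under 0.05.

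Il2rb (chr15:78363456-78395566, minus strand), the signalling chain that binds IL-2 and IL-15, stood at 283, 259.7, 282 and 331 CPM in Ly6c2+ cells and at 90.8, 75.0, 107 and 105 CPM in Ly6c2-negative cells. The lowest Ly6c2+ library was thus above the highest Ly6c2-negative one. The log2 difference was 1.62 ± 0.11 (SE, edgeR adjusted p = 1.17e-07). Il2rb was seen in 81.4%, 73.5%, 81.8% and 80.9% of Ly6c2+ cells, and at 2000 UMIs per cell in 36.4%, 37.9%, 38.2% and 36.4% of them against 14.6%, 15.1%, 15.9% and 18.3% of Ly6c2-negative cells. The receptor chain was present in most Ly6c2+ cells and its excess held at equal depth.

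Il18r1 and Il18rap, the chains of the IL-18 receptor, are neighbours on chromosome 1 (chr1:40504712-40540014 and chr1:40554522-40590865, both plus strand). Il18r1 was at 226, 153, 297 and 327 CPM in Ly6c2+ and 88.5, 88.2, 116 and 134 CPM in Ly6c2-negative cells, a log2 difference of 1.21 ± 0.13 (edgeR adjusted p = 2.52e-05). Il18rap was at 58.3, 51.1, 94.7 and 76.9 against 16.2, 11.8, 25.9 and 5.33 CPM, a log2 difference of 2.12 ± 0.21 (edgeR adjusted p = 1.11e-05). Both chains were thus higher without overlap of the gates. Il12rb2, the inducible chain of the IL-12 receptor, was at 86.7, 101, 118 and 199 against 30.8, 24.5, 31.3 and 73.2 CPM (log2 1.73 ± 0.28, edgeR adjusted p = 0.00115).

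Over the list of 14 cytokine receptors and their signalling genes, 5 were higher (Il18rap, Il12rb2, Il2rb, Il18r1 and Stat4) and 1 lower (Stat5b), with a median log2 difference of 0.25 beside -0.02 over all genes tested. Stat4, a transducer of IL-12 signals, was higher by a log2 of 0.33 (edgeR adjusted p = 0.0287), and this call was lost without P-LC24, without I-LC32 or without I-HC32 and with thinned cells (0.17). Stat5b, a transducer of IL-2 and IL-15 signals, was lower at 199.6, 153, 159.5 and 183 against 343, 265, 252 and 321 CPM (log2 -0.75 ± 0.12, edgeR adjusted p = 0.000667). Il7r, the IL-7 receptor of naive and memory T cells, was at 1232, 834, 877 and 1320.5 CPM in Ly6c2+ cells and 1335, 971, 732 and 1318 CPM in Ly6c2-negative cells, and the ranges overlapped.

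**Figure D2:**
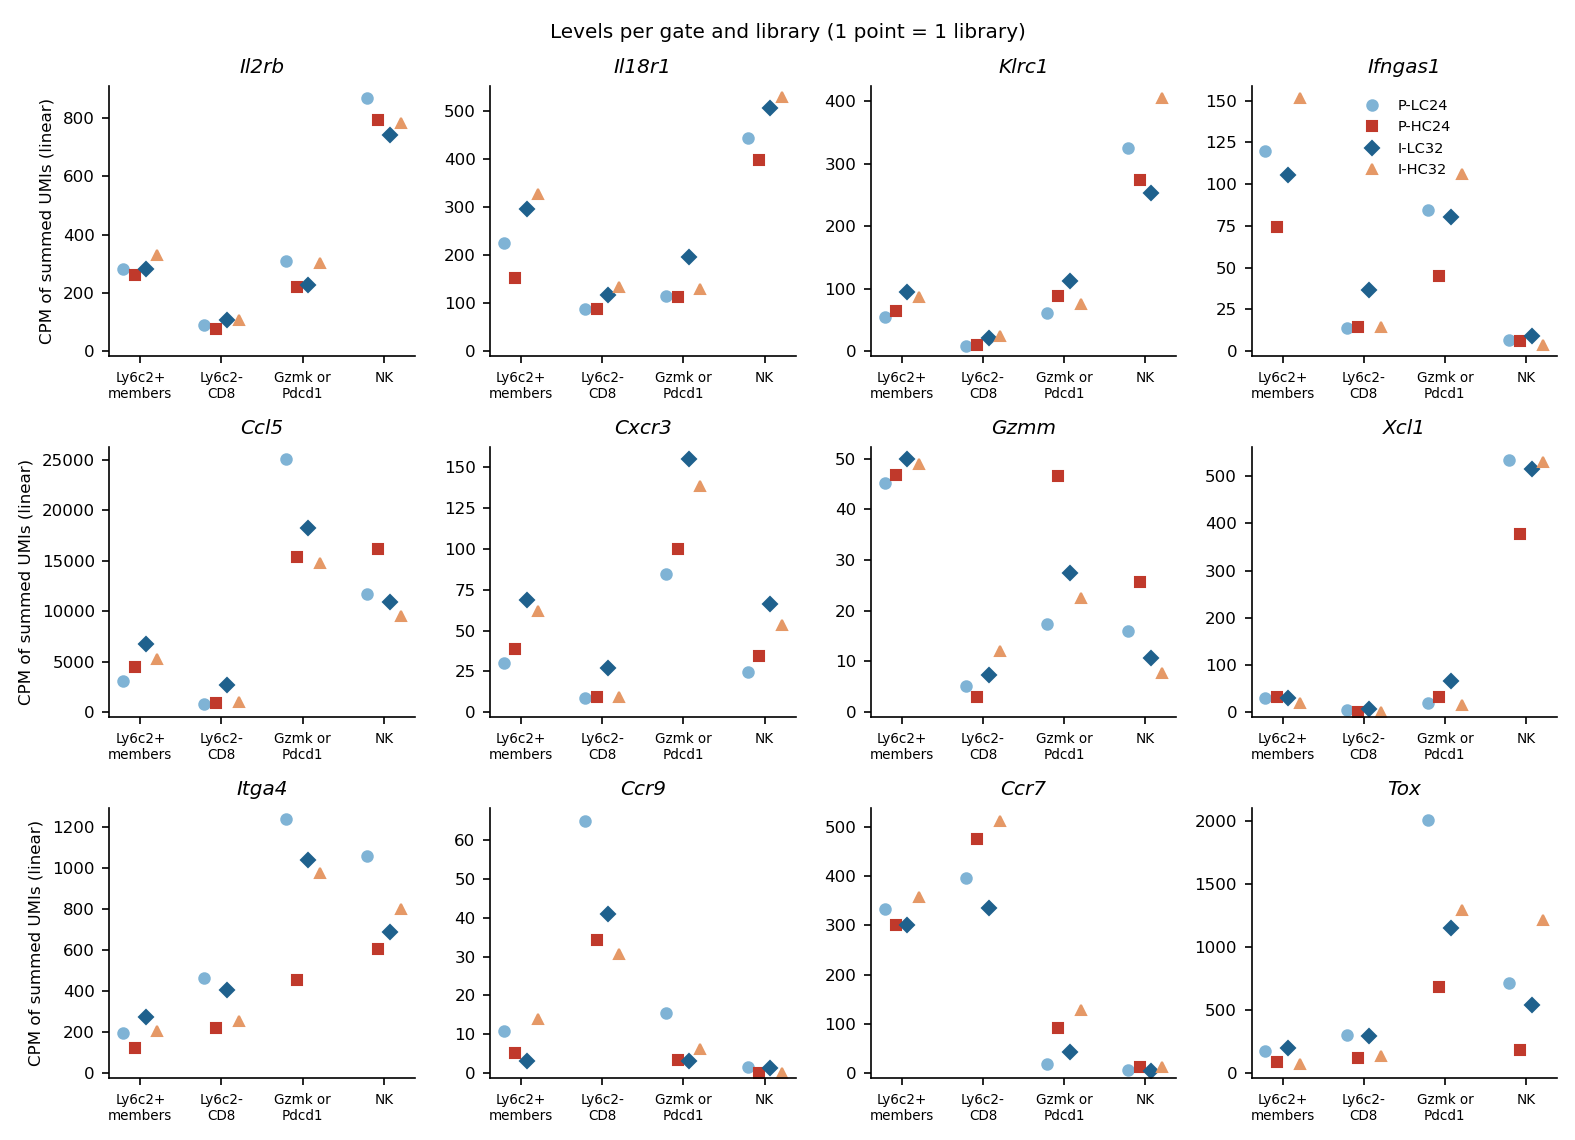
Levels of 12 genes in CPM of summed UMIs (linear axes from 0) in the 4 gates, Ly6c2+ CD8, Ly6c2-negative CD8, Gzmk or Pdcd1 CD8, and NK-gated; each point is 1 library. Il2rb in Ly6c2+ cells (259.7 to 331 CPM) lies above Ly6c2-negative cells (75.0 to 107) and below NK-gated cells (742 to 871), while Ifngas1 is lowest in NK-gated cells (3.82 to 9.26).

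Ifngas1 is a long non-coding RNA transcribed from chr10:118337792-118432246 (minus strand), next to Ifng (chr10:118276951-118281797, plus strand), the interferon-gamma gene. It stood at 120.0, 74.0, 106 and 151 CPM in Ly6c2+ cells and 14.0, 14.2, 36.7 and 14.6 CPM in Ly6c2-negative cells. The gates did not overlap, and the log2 difference was 2.42 ± 0.21 (edgeR adjusted p = 4.03e-06). NK-gated cells held 6.54, 5.72, 9.26 and 3.82 CPM, so that Ly6c2+ cells were also above them (log2 4.34 ± 0.32, edgeR adjusted p = 6.89e-09). It was seen in 52.3%, 39.0%, 45.4% and 50.6% of Ly6c2+ cells and in 2.42%, 3.03%, 3.25% and 2.33% of NK-gated cells. Ifng mRNA itself was sparse, at 11.5, 24.5, 20.5 and 14.0 CPM in Ly6c2+ and 5.60, 7.35, 15.0 and 0 CPM in Ly6c2-negative cells, and did not pass the test (edgeR adjusted p = 0.212).

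NK receptors were the list with the most genes that passed, 11 of 22, all higher in Ly6c2+ cells, with a median log2 difference of 1.53. Those of them whose symbols start with Klr lie together on chromosome 6 in the NK gene complex. Klrc1 (chr6:129642978-129655936), which encodes the inhibitory receptor NKG2A, was at 55.3, 64.5, 94.98 and 87.3 CPM against 8.40, 9.80, 21.1 and 24.0 CPM, a log2 difference of 2.36 ± 0.24 (edgeR adjusted p = 1.65e-05). Klrc2, which encodes the activating NKG2C, was at 64.4, 42.4, 96.5 and 94.3 against 8.40, 9.80, 21.7 and 17.3 CPM (log2 2.38 ± 0.26). The inhibitory and the activating receptor were thus higher together. Klre1 (log2 2.38 ± 0.23) and Klrk1, which encodes NKG2D (log2 1.82 ± 0.26, 81.9, 101, 214 and 222 against 35.3, 10.8, 81.2 and 49.3 CPM), did not overlap between the gates either. Klrd1, the CD94 partner chain of NKG2A and NKG2C, was at 249.5, 281, 313 and 272 against 249, 195, 156 and 212 CPM and missed the threshold (log2 0.48 ± 0.14, edgeR adjusted p = 0.0644), but passed with cells holding macrophage UMIs removed (0.48, edgeR adjusted p = 0.0272).

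The Ly49 genes (Klra) followed. Klra7 was at 32.7, 42.0, 49.4 and 45.4 CPM in Ly6c2+ and 12.3, 2.94, 2.41 and 1.33 CPM in Ly6c2-negative cells (log2 3.00 ± 0.39, edgeR adjusted p = 0.00014), and Klra1, Klra3, Klra6 and Klra9 also passed, at log2 differences of 2.78 to 3.36. Klra3 lost its call without P-HC24 (2.34), and Klra9 without P-LC24 (2.77), I-LC32 (3.15) or I-HC32 (2.85). Ly49 genes are near copies of each other, with 98.3% of the last 400 bases shared by Klra3 and Klra9 and 85.2% by Klra1 and Klra7. The split between them is thus uncertain, and their sum less so. Summed over all Klra genes, Ly6c2-negative cells stood at 81.2, 7.84, 13.2 and 6.66 CPM. Binned by Ly6c2 UMIs, Ly6c2+ cells of P-LC24 ran from 2.71 CPM (1 UMI) to 136 CPM (over 10), on both sides of that library's 81.2 CPM. In P-HC24, I-LC32 and I-HC32 every bin of Ly6c2+ cells was above the Ly6c2-negative value. Any Klra UMI was seen in 25.2%, 22.9%, 25.7% and 29.2% of Ly6c2+ cells and in 3.92%, 1.99%, 5.07% and 4.30% of Ly6c2-negative cells. At 2000 UMIs per cell the shares were 9.69%, 12.9%, 13.7% and 14.8% against 2.01%, 0.797% and 1.87% in P-LC24, P-HC24 and I-LC32. In I-HC32, 0 of 93 thinned Ly6c2-negative cells had one, and the exact upper limit of 3.89% holds for cells read at 2000 UMIs only, below the 4.30% seen in the same cells at full depth. The number of NK receptor genes called was 10 to 13 when 1 library was left out, 9 of 20 with thinned cells and 14 with cells holding macrophage UMIs removed.

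Within the Ly6c2+ cells, Klrc1 and Xcl1 were seen more often in cells that also held a Klra UMI. Of the 65, 57, 86 and 26 cells with a Klra UMI, 46.2%, 43.9%, 50% and 57.7% also had Klrc1, against 15.0%, 19.3%, 32.9% and 23.8% of the cells without one. Xcl1, a chemokine that attracts cross-presenting dendritic cells, was in 41.5%, 29.8%, 34.9% and 26.9% of cells with and 13.5%, 16.1%, 8.43% and 9.52% of cells without Klra. The direction was the same in all 4 libraries. Median depth was higher in the cells with Klra as well, at 12004, 9832, 9704 and 10199 against 11114, 9765, 9241 and 8917 UMIs, and its part in the difference was not tested.

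Effector genes were also higher. Of 17 cytotoxic and effector genes tested, 9 were higher and none lower, with a median log2 difference of 1.22. Ccl5, the chemokine RANTES that memory CD8 T cells store as mRNA, was at 3102, 4435, 6734 and 5223 CPM against 819, 888, 2696 and 984 CPM (log2 1.95 ± 0.27, edgeR adjusted p = 0.000298). Gzmm, which encodes granzyme M, was at 45.2, 46.7, 49.97 and 48.9 CPM, a mean of 47.7 ± 2.16 (SD, n = 4 libraries), against 5.04, 2.94, 7.22 and 12 CPM (log2 3.01 ± 0.31, edgeR adjusted p = 1.65e-05). It varied least over the libraries among the genes shown in the plot of levels by gate. Xcl1 was at 30.3, 32.9, 30.7 and 18.6 against 3.92, 0.490, 6.02 and 0 CPM (log2 3.34 ± 0.50). Ctsw, Fasl, Serpinb9, Serpinb6b and Prf1, genes of the lytic granule, its inhibitors and the death ligand, were higher by log2 0.98 (Prf1) to 1.65 (Fasl). Prf1 lost its call without I-LC32 (1.04) or I-HC32 (0.80) and with thinned cells (0.65), and Serpinb6b with thinned cells (0.79).

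The classical killing enzymes were low. Gzmb, which encodes granzyme B, was at 2.36, 26.1, 15.8 and 19.8 CPM in Ly6c2+ and 5.04, 3.43, 8.42 and 4.00 CPM in Ly6c2-negative cells and did not pass (log2 1.5, edgeR adjusted p = 0.236), but with cells thinned to 2000 UMIs it was higher (log2 2.58, edgeR adjusted p = 0.02). Gzma was at 6.07, 32.9, 43.1 and 2.33 CPM, where NK-gated cells held 7329, 8402, 6331 and 4511 CPM. Nkg7, a granule membrane gene, was higher by a log2 of 0.63 (edgeR adjusted p = 0.0137), but not without P-HC24 (0.59) or without I-HC32 (0.60). Between 7 and 10 cytotoxic genes were called with 1 library left out.

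Genes of the memory surface and survival list moved both ways, with 7 higher and 2 lower of 17 tested and a median log2 difference of 0.59. Cxcr3, the chemokine receptor that guides T cells into inflamed tissue, was at 30.3, 38.4, 68.9 and 61.7 against 8.40, 9.31, 27.1 and 9.32 CPM (log2 1.82 ± 0.18, edgeR adjusted p = 1.08e-05). Cd44, the classical marker of antigen-experienced T cells, was at 117, 84.3, 124 and 146 against 61.6, 23.0, 90.2 and 124 CPM, and the ranges overlapped. Its log2 difference of 0.80 ± 0.21 passed (edgeR adjusted p = 0.0368) but not without P-LC24 (0.75), without P-HC24 (0.58) or without I-LC32 (0.96), and was 1.59 (edgeR adjusted p = 3.50e-08) with cells holding 2 or more macrophage UMIs removed from both gates. Cd44 was seen in 51.9%, 41.8%, 55.8% and 64.0% of Ly6c2+ cells and 13.7%, 11.6%, 23.0% and 22.6% of Ly6c2-negative cells. Slamf7 (log2 1.42), Fasl and Cd5 (0.61) were higher too, the last not without P-LC24 (0.54), and Itgal (0.59) lost its call whichever of the 4 libraries was left out (0.58 to 0.63). With thinned cells Slamf7 (1.06), Cd5 (0.60) and Itgal (0.64) did not pass.

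Itga4, the alpha-4 integrin chain, was lower at 197, 119.9, 272 and 204 against 463, 218, 403 and 256 CPM (log2 -0.75 ± 0.15, edgeR adjusted p = 0.00618), but not without P-LC24 (-0.59). Slamf6, a receptor of stem-like T cells, was lower by a log2 of -0.60 (edgeR adjusted p = 0.0276) and lost its call without P-HC24 (-0.57), I-LC32 (-0.55) or I-HC32 (-0.66) and with thinned cells (-0.52). Bcl2, the survival gene, was at 1385, 1145, 1386 and 1995 against 1022, 1116, 1144 and 1645 CPM and did not pass (log2 0.25, edgeR adjusted p = 0.337). Between 4 and 6 genes of the list were called higher and 1 lower with 1 library left out.

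Of 15 memory transcription factors tested, 3 were higher and none lower, with a median log2 difference of 0.00. Eomes, the T-box factor that drives Il2rb in memory T cells, was at 47.9, 32.9, 40.4 and 61.7 CPM against 21.3, 8.33, 27.1 and 24.0 CPM (log2 1.18 ± 0.27, edgeR adjusted p = 0.0146). Tbx21, which encodes T-bet, was at 29.3, 31.3, 49.7 and 47.7 against 12.9, 10.8, 36.7 and 6.66 CPM (log2 1.13 ± 0.31, edgeR adjusted p = 0.0455), and Prdm1 was higher by a log2 of 1.76 at levels of 6.73 to 11.6 CPM. None of these calls held under all alternatives. Eomes lost its call without P-LC24 (1.18) or P-HC24 (1.01) and with thinned cells (1.11, edgeR adjusted p = 0.0623). Tbx21 lost it without P-LC24 (1.14), P-HC24 (1.02) or I-HC32 (0.93), and Prdm1 without P-HC24 (1.75), I-LC32 (1.78) or I-HC32 (1.46). With thinned cells Tbx21 passed (1.51) and Prdm1 was at 0.15 (edgeR adjusted p = 0.966). Tcf7, the factor of naive and stem-like T cells, was at 342, 249.8, 255 and 233 against 399, 255, 222 and 230.4 CPM (log2 -0.01). Lef1, its partner, was at 781, 539.5, 619 and 626 against 1010.1, 744, 867 and 884 CPM (log2 -0.44, edgeR adjusted p = 0.184), lower in each library. It did not pass with all UMIs but did with thinned cells (-0.50, edgeR adjusted p = 0.0278).

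Genes of naive T cells and of lymph node homing were present in the Ly6c2+ cells. Of 16 tested, none was higher and 2 were lower in Ly6c2+ than in Ly6c2-negative cells, with a median log2 difference of -0.20. At an unadjusted p under 0.05, 1 was higher and 6 lower, and DESeq2 also called none higher and 2 lower. Ccr7, the lymph node chemokine receptor, was at 332, 299.6, 300.1 and 358 against 397, 474, 336 and 513 CPM (log2 -0.37, edgeR adjusted p = 0.516). With cells thinned to 2000 UMIs, Ccr7 (-0.57, edgeR adjusted p = 0.0262) and Actn1 (-0.58, edgeR adjusted p = 0.0357) of this list were lower. Summed over the gate, the Ly6c2+ cells thus carried memory and NK receptor genes beside Ccr7, a gene of naive and central memory cells. Whether the same single cells held Ccr7 and the other genes was not tested.

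The exceptions were Ccr9, a gut-homing chemokine receptor that naive CD8 T cells also carry, and Igfbp4. Ccr9 was at 10.8, 5.15, 3.1 and 14.0 against 65.0, 34.3, 40.9 and 30.6 CPM (log2 -2.61 ± 0.29, edgeR adjusted p = 3.09e-05), and the gates did not overlap. Igfbp4 was at 31.0, 31.3, 14.3 and 10.48 against 51.5, 56.9, 64.4 and 38.6 CPM (log2 -1.29, edgeR adjusted p = 0.0073). Both kept their call with each of the 4 libraries left out in turn. Itgae, which encodes the CD103 integrin chain of epithelial residency, was lower as well, at 9.44, 3.96, 8.07 and 3.49 against 42.6, 10.3, 16.2 and 5.33 CPM (log2 -1.47 ± 0.31, edgeR adjusted p = 0.00858). Xcl1, described above, is also of the residency list.

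Several lists showed little. None of 30 interferon-stimulated genes and none of 19 dissociation and heat shock genes passed the test between Ly6c2+ and Ly6c2-negative cells by edgeR (median log2 0.04 and -0.10). At an unadjusted p under 0.05, 1 interferon gene was higher and 2 lower, and 1 dissociation gene was higher and 3 lower, and DESeq2 called none of the former and 1 of the latter higher. Of 14 cell cycle genes H2az1 was higher (log2 0.54, not without P-LC24 or I-LC32), and Mki67, the proliferation marker, was seen in 1.2%, 0.4%, 1.8% and 1.1% of Ly6c2+ cells. Of 15 T cell receptor signalling genes Cd6 was higher (log2 0.63, not without I-HC32). Of 13 exhaustion genes Eomes was higher and Slamf6 lower, both also in lists above. Ahnak, Ifitm10 and Lgals1 were higher among 14 activation, vimentin and S100 genes, the last (log2 0.81) losing its call whichever library was left out.

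**Figure D3:**
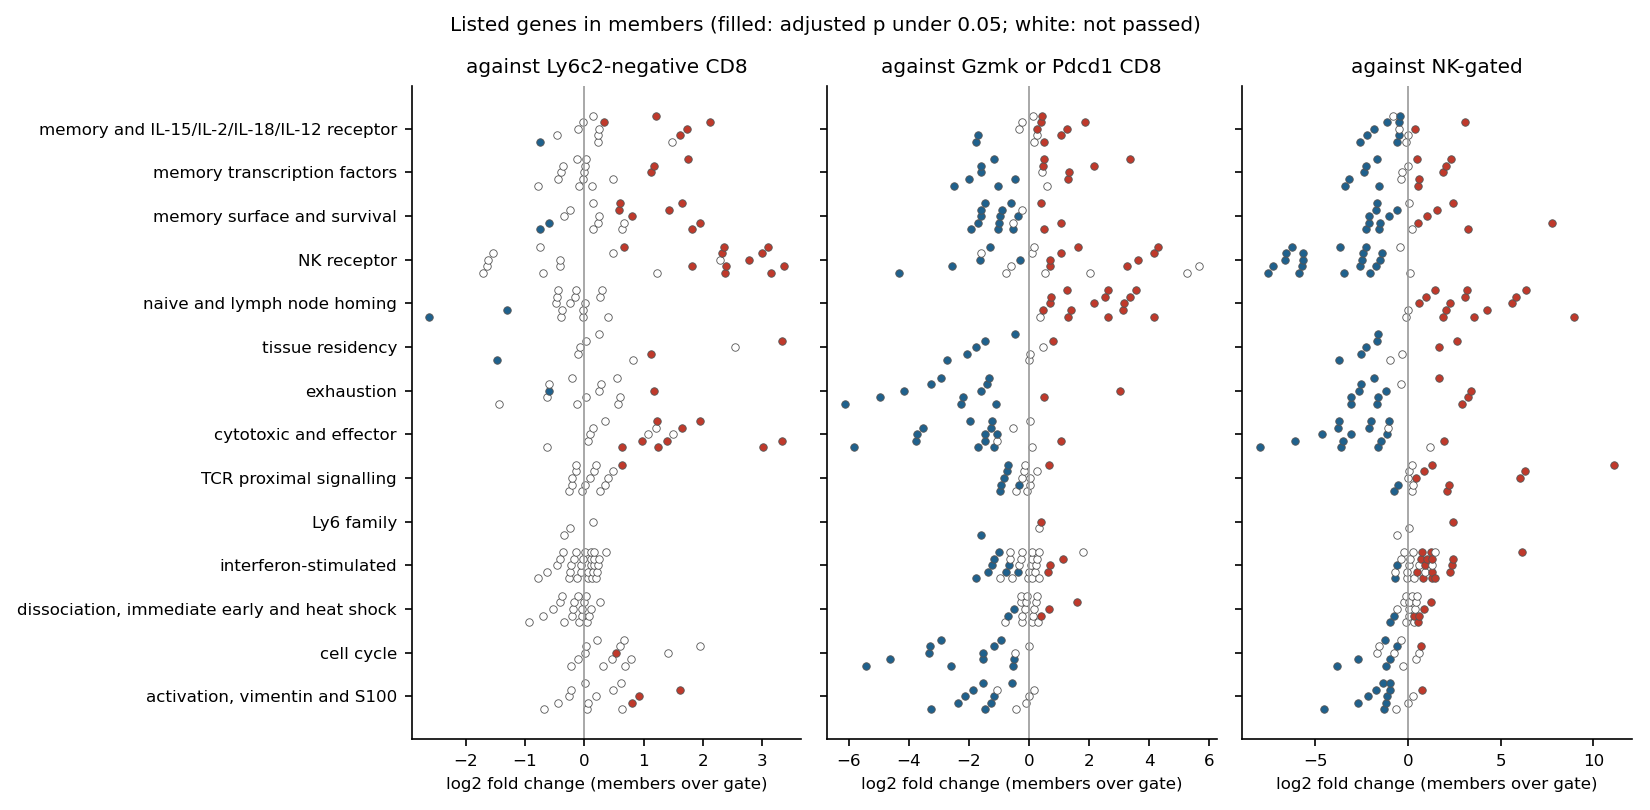
Log2 differences of the genes of 14 lists in Ly6c2+ CD8 cells against Ly6c2-negative CD8 cells, Gzmk or Pdcd1 CD8 cells and NK-gated cells; 1 point is 1 gene, filled points passed an adjusted p of 0.05 (red higher, blue lower). NK receptor genes passed higher in 11 of 22 against Ly6c2-negative cells and lower in 19 of 21 against NK-gated cells, and naive genes passed higher in 15 of 16 against Gzmk or Pdcd1 cells.

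Among all genes with at least 50 CPM in either gate, those with the largest differences included genes outside the lists. Samd3, a gene of NK and memory T cells, was at 69.8, 53.0, 79.8 and 82.7 against 11.8, 7.84, 12.6 and 21.3 CPM (log2 2.52 ± 0.20, edgeR adjusted p = 1.07e-06), the largest of those named. Yes1, which encodes a Src family kinase, was at 108, 118, 121 and 135 against 19.0, 24.0, 16.8 and 61.3 CPM (log2 2.18 ± 0.28). Yes1 was also higher than in the Gzmk or Pdcd1 cells (log2 3.48) and in NK-gated cells (log2 2.95), and was the only one of the 12 named genes of which this was so besides Ifngas1. Lrrk1 (log2 2.09), Runx2 (1.91), a Runx family factor, and Chst11 (1.86), a chondroitin sulfotransferase, completed the 12 with Ifngas1, Klre1, Klrc2, Klrc1, Il18rap, Ccl5 and Klrk1.

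The genes with the lowest values began with C1qc, C1qb, Pf4, Cxcl2 and Apoe, which macrophages or platelets express. C1qc was at 0, 2.77, 0.310 and 6.99 CPM in Ly6c2+ and 28.0, 60.3, 57.1 and 67.9 CPM in Ly6c2-negative cells. Cells with 2 or more macrophage marker UMIs numbered 0, 2, 2 and 3 in the Ly6c2+ and 1, 2, 2 and 4 in the Ly6c2-negative gate. With them removed, C1qc, C1qb and Pf4 fell below the filter on low counts, Apoe was at a log2 of -0.27 (edgeR adjusted p = 0.801) and Cxcl2 at -0.72 (edgeR adjusted p = 0.423). The macrophage markers were Adgre1, C1qa, C1qb, Cd5l and Vsig4, so that the fall of C1qb was fixed by the choice of the removed cells. Without P-LC24 alone the call of Apoe was lost as well (-2.61), and Cxcl2 lost it without P-LC24 (-4.05), I-LC32 (-2.85) or I-HC32 (-4.50).

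The T cell genes among the lowest were different. Tgfbr3, which encodes the co-receptor betaglycan, was at 19.2, 14.6, 28.6 and 33.8 against 77.9, 68.6, 91.4 and 125 CPM (log2 -1.94 ± 0.22, edgeR adjusted p = 4.67e-05). Ifngr2, the signalling chain of the interferon-gamma receptor, was at 44.2, 19.8, 20.2 and 19.8 against 114, 125, 42.7 and 125 CPM (log2 -1.84 ± 0.26, edgeR adjusted p = 0.000381). Igf1r, the IGF-1 receptor (log2 -1.39), Rgcc (-1.38) and Tubb2a (-1.57) were lower too. In the Gzmk or Pdcd1 cells Tgfbr3, Ifngr2 and Igf1r were lower still, so that Ly6c2+ cells lay between the other CD8 gates for these 3 genes (log2 1.10, 3.04 and 2.21 above Gzmk or Pdcd1 cells). The first of these lost its call without I-HC32 (1.02) and with thinned cells (0.83).

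Markers of other cell types differed between the gates. The 6 naive CD8 markers, summed, were at 2897, 2268, 2199 and 2375.5 CPM in Ly6c2+ and 3387, 2739, 2459 and 3080 CPM in Ly6c2-negative cells. They were thus lower in Ly6c2+ cells in each library. A UMI of them was held by 99.2%, 98.0%, 96.7% and 98.9% of Ly6c2+ cells, but also by 97.6%, 90.9%, 93.5% and 95.3% of NK-gated cells. The summed macrophage markers were at 2.02, 10.3, 2.79 and 59.4 CPM in Ly6c2+ and 103, 117, 233 and 298 CPM in Ly6c2-negative cells, with Vsig4 at 0 in the Ly6c2+ cells of P-LC24, P-HC24 and I-HC32 and C1qa at 0 in those of I-LC32. B cell markers were alike in both gates, at 89.4 to 132 and 104 to 143 CPM. The 6 NK markers, without Ncr1, were at 105, 146, 145 and 101 CPM in Ly6c2+ cells, with Klra4 at 0 in P-HC24 and I-HC32 and Klra8 at 0 in I-HC32, and at 189, 105, 206 and 259.7 CPM in Ly6c2-negative cells. Counted by cell, a UMI of these NK markers was held by 40.7%, 42.6%, 38.8% and 46.1% of Ly6c2+ cells. In Ly6c2-negative cells the shares were lower, at 18.6%, 15.1%, 18.9% and 28.0%. Monocyte markers were at 237, 335, 275 and 362 against 141, 828, 1305 and 3015 CPM, and neutrophil markers stood out at 116 CPM in the Ly6c2+ cells of P-HC24 and at 592 CPM in the Ly6c2-negative cells of P-LC24. Erythroid markers were at 7939, 5979, 12566 and 95.5 against 9137, 8646, 18317 and 2573 CPM, lowest in I-HC32 in both gates. Ncr1, which encodes NKp46, was at 0.337, 1.58, 1.55 and 0 CPM in Ly6c2+ cells against 742 to 812 CPM in NK-gated cells. Markers of gamma-delta T cells were at 12.3 to 23.3 CPM and those of NKT and MAIT cells at 7.08 to 20.2 CPM, where Trav11, the invariant chain of NKT cells, was at 0 in every library. The part of other cell types in the differences above was not tested beyond leaving out cells with macrophage UMIs.

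CD8-gated cells without Gzmk and Pdcd1 were also binned by Ly6c2 UMIs, and values are the mean and SD of 4 libraries. Bins of 0 and of 1 UMI are the cells just outside and just inside the rule. Il2rb was at 94.5 ± 14.9 CPM with 0 UMIs, 221 ± 79.0 with 1, 225 ± 53.3 with 2, 279 ± 54.7 with 3 to 5, 349 ± 79.1 with 6 to 10 and 311 ± 26.2 with over 10. The step between 0 and 1 UMI was thus the largest for Il2rb. Klrc1 was at 15.8 ± 7.85, 40.3 ± 20.5, 37.2 ± 19.8, 61.5 ± 22.1, 89.8 ± 29.4 and 121 ± 29.8 CPM over the same bins, a gradient that went on to the highest bin. Klra genes together were at 27.2 ± 36.1, 37.8 ± 32.0, 56.6 ± 17.1, 72.4 ± 58.7, 130 ± 32.8 and 179.7 ± 69.8 CPM.

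Ifngas1 followed Il2rb more than Klrc1, with 19.9 ± 11.2 CPM at 0 UMIs, 86.6 ± 44.9 at 1 and 143 ± 56.2 at over 10. Xcl1 was near its floor up to 2 UMIs (7.93 ± 5.43 at 1, 4.38 ± 6.53 at 2) and at 28.5 ± 9.77 with 3 to 5 and 54.0 ± 6.63 with over 10. Ccr9 went the other way, at 42.7 ± 15.5, 24.4 ± 11.4, 15.7 ± 14.0, 3.56 ± 3.86, 1.21 ± 2.42 and 5.80 ± 7.46 CPM. The bin of 1 UMI held 161 cells and that of over 10 held 202, and Ly6c2 UMIs grow with cell depth, whose part in the gradients was not tested.

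**Figure D4:**
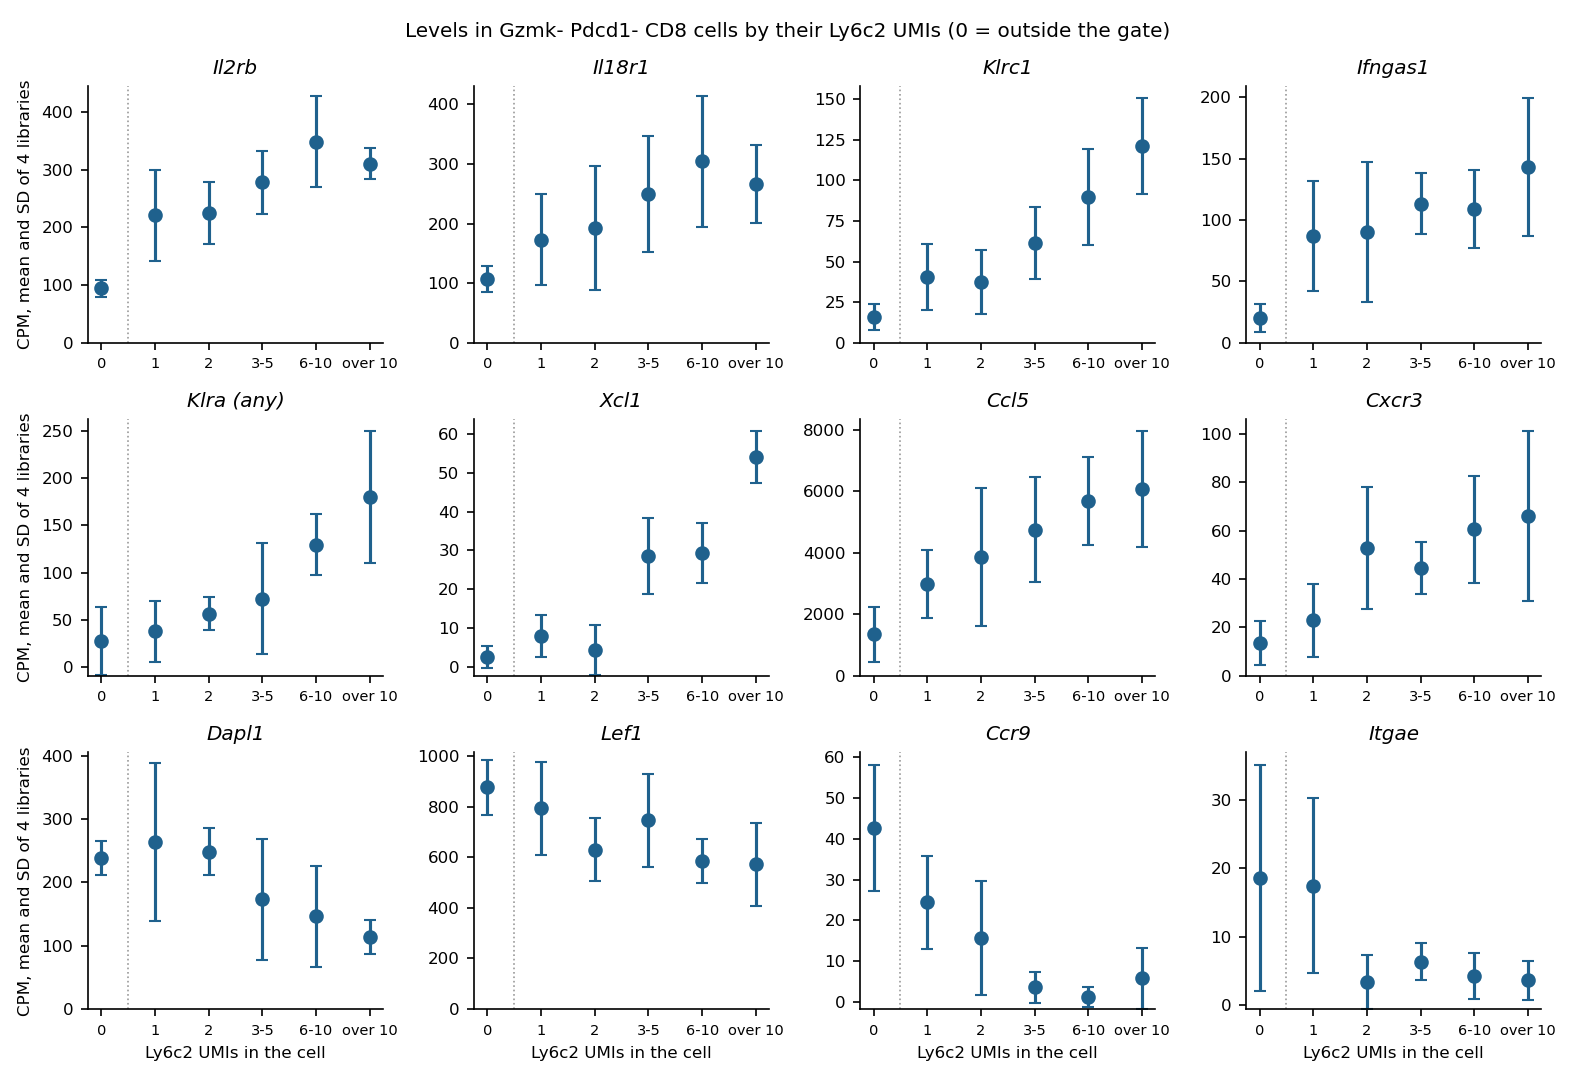
CPM of 12 genes (Klra genes as a sum) by Ly6c2 UMIs per cell (0, 1, 2, 3-5, 6-10, over 10) in CD8-gated cells without Gzmk and Pdcd1; points are means and bars SDs of 4 libraries, and the dotted line separates cells with 0 UMIs, which the rule leaves out. Klrc1 goes from 15.8 to 121 CPM and Ccr9 from 42.7 to 5.80 CPM from the lowest to the highest bin.

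Beta-chain variable genes could be read in few cells, since 3′ counting rarely reaches them. Each cell was given the Trbv gene with most UMIs, and ties were left out. This could be done for 27.1%, 16.5%, 17.6% and 10.1% of Ly6c2+ cells (70, 41, 59 and 9 cells), with 20, 17, 18 and 8 different Trbv genes among them. The most frequent was Trbv19 in P-LC24 (12.9%, 6.05 to 23.0) and in I-HC32 (22.2%, 2.81 to 60.0), and Trbv12-2 in P-HC24 (19.5%, 8.82 to 34.9) and I-LC32 (22.0%, 12.3 to 34.7). These shares are of the cells given a Trbv gene, and the 9 such cells of I-HC32 leave a wide interval. Clones within a Trbv gene cannot be seen with these data.

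Against the CD8 cells with Gzmk or Pdcd1, 1147 genes were higher (12.4%) and 1113 lower (12%) in Ly6c2+ cells of 9283 tested. That gate held monocyte markers at 503, 8155, 191 and 1304 CPM and macrophage markers at 6.73, 1133, 3.22 and 237 CPM. With cells holding 2 or more macrophage UMIs left out, 1233 genes were higher and 1193 lower. The part of these other cell types was not tested further. Gzmk and Pdcd1 chose the gates and are no result. The direction of the naive, exhaustion, cytotoxic and cell cycle lists in this comparison is not independent of that choice of cells. The naive and homing list was higher in 15 of 16 genes tested, with none lower and a median log2 difference of 2.34. Satb1, a chromatin organiser of naive T cells, was at 1203, 977, 901 and 1112 CPM in Ly6c2+ and 100.02, 146, 107 and 136 CPM in Gzmk or Pdcd1 cells (log2 3.36 ± 0.15, edgeR adjusted p = 3.04e-10), without overlap. Ccr7 (log2 2.63), Lef1 (2.15), Tcf7 (1.32) and Il7r (1.26) were higher as well. Among the genes named by level and direction St6gal1 differed most, a sialyltransferase, at 162, 129, 157 and 242 against 9.62, 16.6, 9.13 and 12.3 CPM (log2 4.20).

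Of 13 exhaustion genes tested, 11 were lower and 2, Tnfsf8 and Slamf6, higher, with a median log2 difference of -2.19. Tox, the factor of exhausted T cells, was at 178, 89.9, 195 and 71.0 CPM in Ly6c2+ and 2008, 686, 1148 and 1297 CPM in Gzmk or Pdcd1 cells (log2 -2.92 ± 0.32, edgeR adjusted p = 2.49e-06). Lag3, an inhibitory receptor, was at 0.674, 1.19, 3.41 and 3.49 against 135, 43.2, 67.1 and 60.2 CPM (log2 -4.94, edgeR adjusted p = 1.37e-07). Maf was lower by a log2 of -5.0 and Ccl3 by -5.82. These genes are known to move with Pdcd1, which chose the other gate, so that their direction is not independent of the choice of cells. Slamf6 lost its call without P-LC24 (0.28), I-LC32 (0.59) or I-HC32 (0.52).

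Cytotoxic genes were lower in 12 of 17 and higher in 1, Gzmm (45.2, 46.7, 49.97 and 48.9 against 17.3, 46.5, 27.4 and 22.5 CPM, log2 1.08, edgeR adjusted p = 0.00431), which lost its call without P-LC24 (0.88) and with thinned cells (0.62). Ccl5 stood at 25088, 15391, 18271 and 14814 CPM in Gzmk or Pdcd1 cells, above every Ly6c2+ library (log2 -1.70, edgeR adjusted p = 0.00013). Eomes was lower than there by a log2 of -1.60 and Tbx21 by -1.03, the latter not without P-LC24 (-0.74) or with thinned cells (-0.58). For Ccl5, Eomes, Tbx21 and Cxcr3 (log2 -1.03) the Ly6c2+ cells thus lay between the Ly6c2-negative and the Gzmk or Pdcd1 cells. Of 14 cell cycle genes 12 were lower, among them Mki67 (11.1, 0.396, 3.1 and 1.17 against 51.9, 33.2, 67.1 and 74.5 CPM, log2 -3.32).

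Receptors did not follow that order. Il2rb was at 309.7, 221, 227 and 301 CPM in Gzmk or Pdcd1 cells, overlapping the Ly6c2+ range, with a log2 difference of 0.39 (edgeR adjusted p = 0.00808) that was lost without I-LC32 (0.35) and with thinned cells (0.23). Klrc1 was at 60.6, 88.1, 113 and 75.6 CPM there, and did not pass (log2 0.09, edgeR adjusted p = 0.80). Il18r1 (115, 113, 197 and 129 CPM, log2 1.08), Il12rb2 (log2 1.86) and Ifngas1 (84.6, 44.9, 80.0 and 106 CPM, log2 0.78, edgeR adjusted p = 0.00516) were higher in Ly6c2+ cells. Of the NK receptors Klrb1c (log2 4.29) and the Ly49 gene Klra7 (log2 4.16, edgeR adjusted p = 4.26e-06) differed most of those called. Klra7 was at 0, 0, 5.37 and 3.06 CPM in Gzmk or Pdcd1 cells, with any Klra in 1.27%, 5.33%, 5.35% and 2.74% of them. Of 22 NK receptor genes 8 were higher and 5 lower, Klrg1 among the latter.

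Against NK-gated cells, 1538 of 9282 genes were higher (16.6%) and 1613 lower (17.4%). NK receptor genes were lower in 19 of 21 tested and higher in none, with a median log2 difference of -3.44. Klrb1c, which encodes NK1.1, was at 7.08, 12.3, 19.2 and 8.15 CPM in Ly6c2+ and 926, 852, 701 and 710.5 CPM in NK-gated cells (log2 -5.69). Klrc1 was at 325, 275, 254 and 405 CPM there, a smaller gap (log2 -1.75). Among the receptors that were lower, Klrc3 (log2 -1.42), Klrd1 (-1.49) and Klrc1 lay nearest to NK-gated cells. Klra6 (log2 -0.44, edgeR adjusted p = 0.489) and Hcst (0.13, edgeR adjusted p = 0.328) did not pass. Il2rb (871, 792, 742 and 783 CPM in NK-gated cells, log2 -1.13, edgeR adjusted p = 8.87e-08) and Il18r1 (log2 -0.60, edgeR adjusted p = 0.00116) were lower as well.

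T cell genes were higher, as the gates imply. Themis, a T cell selection gene, was at 872, 529.6, 927 and 850.1 CPM in Ly6c2+ cells and at 0.726, 0, 0 and 0 CPM in NK-gated cells. Gzmm was higher than in NK-gated cells (16, 25.7, 10.6 and 7.64 CPM, log2 1.96, edgeR adjusted p = 8.91e-05), as it was than in both CD8 gates. Of 30 interferon-stimulated genes 15 were higher and 2 lower than in NK-gated cells, with a median log2 difference of 0.79 beside -0.02 over all genes.

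Between conditions, a gene was compared in Ly6c2+ cells when it had at least 100 UMIs over both libraries and a UMI in 10% or more of the cells of 1 of them, and a ratio of at least 2-fold was counted. This describes 1 library against 1 other and carries no test. For Prog 12 of 5505 genes were at least 2-fold higher (0.218%) and 66 at least 2-fold lower (1.2%), and the median gene was at a log2 ratio of -0.17. Centred on that median, 26 were higher and 16 lower, so that the excess of lower genes was not seen after centring. For Int 21 of 4934 genes were higher (0.426%) and 33 lower (0.669%), around a median log2 ratio of 0.03.

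Of the genes abundant enough to compare, none of the receptor (11 in Prog and 10 in Int of 14), transcription factor (11 and 13 of 16), memory surface (16 and 17 of 18), naive (15 and 13 of 16) or cytotoxic list (11 and 10 of 17) was past 2-fold. Gzmb, with 7 and 66 UMIs in P-LC24 and P-HC24, and Gzma, with 18 and 83, were not compared, at Prog log2 ratios of 3.47 and 2.44. The median log2 ratio of the naive list was -0.45 in Prog, below the median gene, and of 0.02 in Int, and the cytotoxic list one of 0.33 in Prog and -0.06 in Int. In Prog Tyrobp and Vim passed among listed genes, both higher. In Int Tox, Cxcr6, S100a4, S100a6 and Lgals3 passed, each lower.

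Vim, which encodes the intermediate filament vimentin, was at 269, 564, 686 and 1187 CPM. Both libraries of the high-cholesterol arm were thus above their counterpart of the low-cholesterol arm. Its Prog log2 ratio was 1.06 (95% counting interval 0.94 to 1.19), or 1.24 relative to the median gene, and that of Ly6c2-negative cells was 1.35. Tyrobp, the signalling adaptor of NK and myeloid receptors, was at 22.6, 61.4, 28.9 and 17.5 CPM (Prog 1.44, 1.02 to 1.88, or 1.62 relative to the median gene). It was 0.68 with cells holding macrophage UMIs removed, and Ly6c2-negative cells were at 0.53. Cd74, the invariant chain of MHC class II, was at 27.6, 71.6, 84.7 and 78.0 CPM (Prog 1.37, 0.99 to 1.77, or 1.55 relative to the median gene), at 0.93 with those cells removed, and -0.19 in Ly6c2-negative cells.

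Slc3a2, the heavy chain of the amino acid transporter CD98, was at 49.9, 102, 116 and 92.0 CPM (Prog 1.03, 0.73 to 1.33, or 1.2 relative to the median gene), and at -0.25 in Ly6c2-negative cells. P-LC24 was the lowest of the 4 libraries for Vim, Cd74 and Slc3a2. For the genes with the lowest Prog ratios it was P-HC24. Gpr174, a lysophosphatidylserine receptor, was at 99.5, 41.6, 63.6 and 65.2 CPM (Prog -1.26, -1.59 to -0.93), and Traf3, an adaptor of TNF receptor signalling, at 105, 44.3, 112 and 99.0 CPM (-1.25, -1.57 to -0.93). Relative to the median gene they were at -1.08 and -1.07. Ly6c2-negative cells were at -1.14 and -0.80.

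In Int, Tox was at 178, 89.9, 195 and 71.0 CPM, lower in both libraries of the high-cholesterol arm, with a log2 ratio of -1.46 (-1.86 to -1.08) in Int and -0.99 (-1.22 to -0.76) in Prog. Ly6c2-negative cells were at -1.11 and -1.31, so that the ratio was not particular to Ly6c2+ cells. S100a4, a calcium-binding gene of effector and memory T cells, was at 30.0, 55.02, 151 and 26.8 CPM (Int -2.49, -3.17 to -1.89) and S100a6 at 175, 257, 497 and 236 CPM (-1.07, -1.29 to -0.86). I-LC32 was the highest library for both. Birc3, an inhibitor of apoptosis, was at 124, 93.8, 86.6 and 171 CPM (Int 0.98, 0.68 to 1.28).

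Fn1 and Lyz2, which encode fibronectin and lysozyme and are high in macrophages and monocytes, led the genes higher in Int. Fn1 was at 9.78, 17.0, 13.0 and 208 CPM (4.00, 3.51 to 4.52) and was at 2.28 with macrophage-UMI cells removed, 1.14 with the highest doublet scores removed and 0.25 at a mitochondrial limit of 5%. Lyz2 was at 135, 219.7, 84.4 and 234 CPM (1.47, 1.2 to 1.74) and at 2.99, 0.73 and 0.14 under the same changes. Of all kept cells 4.71%, 11.6%, 5.94% and 17.0% held 2 or more macrophage UMIs, more in the library of the high-cholesterol arm in each pair. The part of these cells in the ratios was not tested further.

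Of 4847 genes compared in both, Slpi and Igkc were at least 2-fold higher in both and Tmem163 lower in both. Their values were known when these 3 genes were picked. Slpi, a secreted protease inhibitor, was at 12.5, 62.9, 15.5 and 148 CPM (Prog 2.33, Int 3.25). It was higher in the other gates too, at 1.74 and 4.61 in Ly6c2-negative and 5.83 and 6.87 in Gzmk or Pdcd1 cells. Igkc, an antibody light chain of B and plasma cells that T cells do not make, was at 19.9, 45.5, 24.8 and 68.7 CPM. Tmem163 was at 39.8, 17.4, 34.1 and 14.0 CPM (-1.19 and -1.29). The libraries of both comparisons are different, but come from the same animals of each arm.

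**Figure D5:**
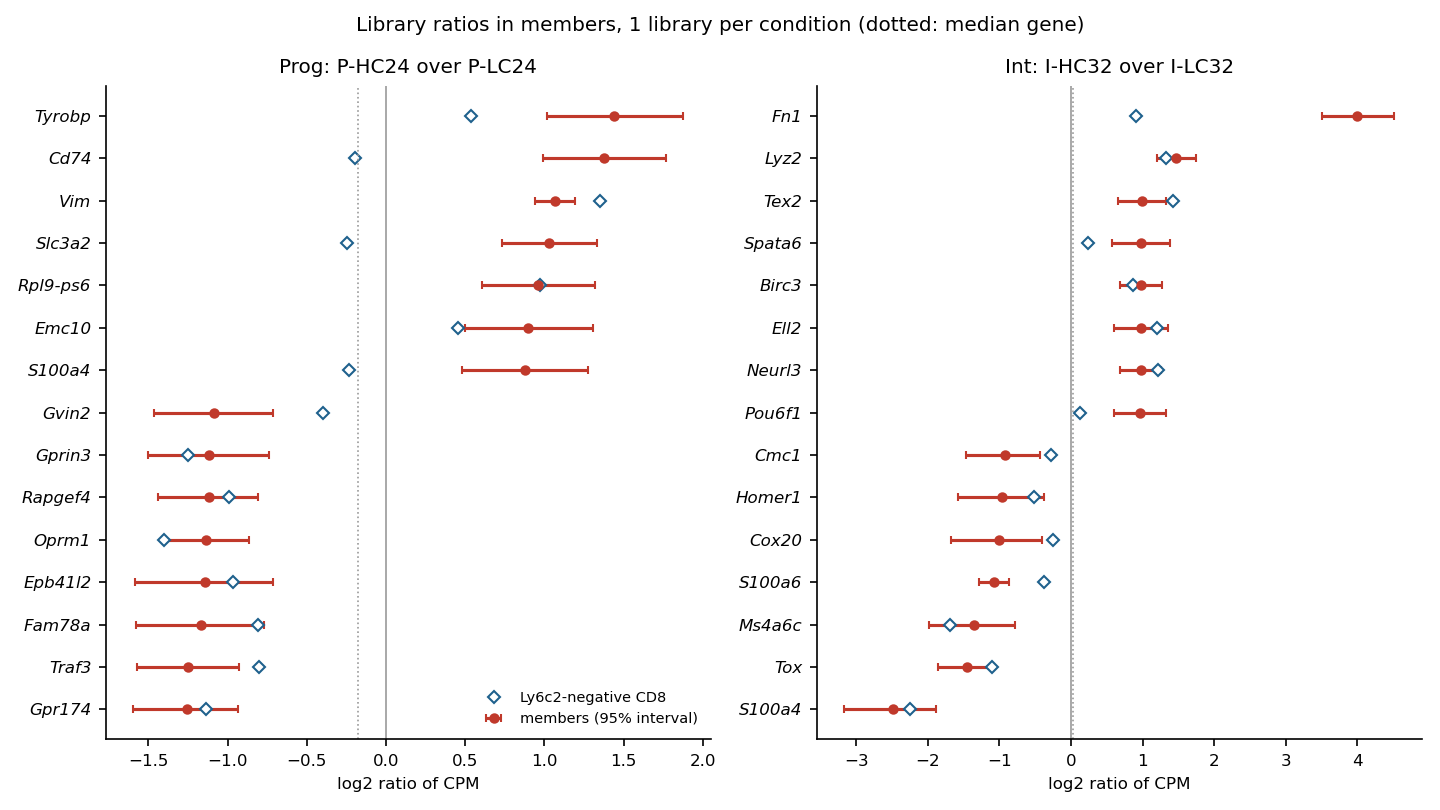
Log2 ratios between libraries of 15 named genes in Prog (P-HC24 over P-LC24) and 15 in Int (I-HC32 over I-LC32); points are Ly6c2+ CD8 cells with 95% counting intervals, diamonds Ly6c2-negative CD8 cells, and the dotted line is the median gene. Fn1 in Int lies highest at 4.00, with Ly6c2-negative cells at 0.90, and S100a4 lowest at -2.49, with Ly6c2-negative cells at -2.25.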

How the data were processed

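Liver cells from 4 libraries were profiled with 10x Genomics 3′ chemistry. The authors deposited, per library, the raw counts (UMIs per gene and cell barcode) that Cell Ranger 9.0.1 made on GRCm39. The ambient RNA correction, integration and annotation described by the study are not part of those counts, and free RNA was not removed here.

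The members, their markers and the gene lists were chosen with earlier results of these data known. Gates used raw UMIs (at least 500 UMIs, 300 genes, at most 10% mitochondrial). UMIs were summed per gate and library, giving 16 sums, and fitted with edgeR 4.0.16 in R 4.3.3 (TMM, quasi-likelihood test, library as a term, filterByExpr, Benjamini-Hochberg adjustment over all genes). Genes of the rule were kept out of the calls. On simulated data of 9291 genes for Ly6c2+ against Ly6c2-negative cells, 71% of 2-fold and 97% of 4-fold changes were recovered and 0.132% of unchanged genes were called. Conditions have 1 library each and were compared as CPM ratios with exact Poisson-based intervals, shares with Clopper-Pearson intervals, all at 95%. Doublets were not removed. Removing the highest Scrublet scores (scanpy 1.11.5, 0.8% of cells per 1000) was an alternative. Alternatives also covered DESeq2 1.42.0, the mitochondrial limit, thinning to 2000 UMIs, the filter and each library left out.

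Genes were named by rule. Against Ly6c2-negative cells these were the 12 highest and 12 lowest that passed with the same sign in all 4 libraries and at least 50 CPM in either gate, and 8 each against the other gates. For Prog and Int these were the 8 highest and 8 lowest with at least 200 UMIs. List members with at least 50 CPM in Ly6c2+ cells were named as well, and other list members were named after their values were seen. Genes of antigen receptors, haemoglobin and mitochondria and Gm or Rik models were not eligible. Some genes that these rules name are not reported here.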

Additional observations from a re-analysis of the deposited data

Results flagged for a closer look

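Among genes compared in both Prog and Int, 2 passed 2-fold in opposite directions in Ly6c2+ CD8 cells, and the difference between the comparisons was not tested, since each condition is 1 library. Cep128, a centrosomal gene, was at 39.1, 19.4, 25.5 and 53.6 CPM in P-LC24, P-HC24, I-LC32 and, last, I-HC32 (116, 49, 82 and 46 UMIs). Its log2 ratio was -1.01 in Prog (95% counting interval -1.52 to -0.52) and 1.07 in Int (0.52 to 1.61), and Ly6c2-negative CD8 cells were at -0.61 and 0.52. Gstp3, a glutathione transferase gene, was at 17.5, 40.0, 36.6 and 14.0 CPM (52, 101, 118 and 12 UMIs). Its log2 ratio was 1.19 in Prog (0.69 to 1.70) and -1.39 in Int (-2.38 to -0.53), with Ly6c2-negative cells at 1.36 and -0.34. The I-HC32 value of Gstp3 rests on 12 UMIs.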

How the results depend on the processing

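No paired analysis was possible because each condition has 1 library. Both libraries of an arm came from the same mice, but Prog and Int compare the arms, and the gates of a library are already paired by the library term of the gate fits. The cause of the changes below was not tested. Among named genes, 2 reversed against the Gzmk or Pdcd1 cells, Cxcl2 at 0.13 with macrophage-UMI cells left out (chosen after seeing the data) and Rpl9-ps6 at -0.00011 with thinned cells. Over all named and listed genes and alternatives, 9109 values kept their side of the threshold, 233 crossed to pass and 387 no longer passed.

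Against Ly6c2-negative cells (257 higher, 134 lower), the counts were 418 and 353 with no filter on low counts, 453 and 313 with only both gates fitted, 125 and 44 with no library term, and 152 and 73 with thinned cells. The number lower was 86 at a mitochondrial limit of 5%. With 1 library left out 151 to 180 were higher and 57 to 123 lower. Against Gzmk or Pdcd1 cells, thinning gave 568 higher and 522 lower, no library term 727 lower, and leaving out 1 library 770 to 1056 higher and 709 to 966 lower. Against NK-gated cells, thinning gave 827 higher and 856 lower, and leaving out 1 library 1103 to 1469 and 1052 to 1526.

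For Prog, 761 genes were higher and 2281 lower at 1.2-fold, 123 and 606 at 1.5-fold, and 119 and 432 with at least 20 UMIs and no share of cells. The mean of per-cell CPM gave 21 higher, and centring 26 higher and 16 lower. For Int, 1104 were higher and 830 lower at 1.2-fold, 263 and 192 at 1.5-fold, and 297 and 398 with at least 20 UMIs. The share of Ly6c2+ cells among CD8-gated cells was 35.4%, 34.1%, 35.7% and 21.6% with at least 2 Ly6c2 UMIs, 47.3%, 47.3%, 55.2% and 39.0% with no condition on Gzmk and Pdcd1, and 24.2%, 28.4%, 31.0% and 16.1% with thinned cells. It was 36.4% in P-HC24 and 37.9% in I-LC32 at a mitochondrial limit of 5%. Over all kept cells it was 5.02%, 3.6%, 4.52% and 1.21%. The 89 Ly6c2+ cells of I-HC32 limit every value of that library.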
